A study of Mus musculus with 12 samples.

Results

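The comparison described here sets B cells that had divided, taken on day 4 of culture with lipopolysaccharide (LPS), against activated B cells that had not yet divided. It uses 10 of the 12 RNA-seq samples of the series, 4 from day 4 and 6 from undivided cells, and asks which genes part all divided from all undivided stages, so that no sample of one side overlaps with any sample of the other. Splenic B cells of male young adult C57BL/6 mice were isolated by depletion of other cells and cultured with LPS. B cells sense this bacterial cell wall component through TLR4. For the undivided stages the cells were first labelled with the division dye CellTrace Violet. The study's methods describe no dye gate for day 4, so division of those cells was not read from the dye in the sort. The undivided stages, with 2 samples each, were sorted at 3 h, 10 h and 33 h as TCRβ- B cells that carried CD69 and had kept the highest dye level. The day 4 stages, also with 2 samples each, were the expanded B cells, sorted as CD22+ CD138-, and the plasmablasts, sorted as CD22- CD138+. The other 2 samples were freshly isolated naive B cells, and they are used here to place the activated stages. The labels give the same strain for all 12 samples, and the study's methods name a C57BL/6 Pep3b background for its mice.

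A resting B cell that meets LPS first grows, building ribosomes and enlarging its nucleus, and only then enters a series of rapid divisions. Part of the progeny becomes plasmablasts, which are dividing, antibody-secreting cells with an expanded endoplasmic reticulum (ER). Blimp-1 (Prdm1) and XBP1 drive that step, while Pax5, Bach2 and Bcl6 hold cells in the B cell state, and switch recombination replaces the heavy chain class during the divisions. In these samples division, days in culture, the seeding density, which was lower for the day 4 cultures, and the sort gates all changed together and cannot be told apart. Since RNA was measured in bulk, fewer cells of a kind and less RNA per cell cannot be told apart either.

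Counts per sample summed to between 23026619 and 60585587 over all 12 samples. Of 27179 genes in the table, 12750 passed the filters and were tested in edgeR. Replicates of a stage correlated with r between 0.989 and 0.995 on the log2 scale, and the p-values measure the spread between 2 samples per stage, which the series names as biological replicates. The fold change is the mean of the 2 day 4 stages minus the mean of the 3 undivided stages on the log2 scale, with equal weight per stage. A gene was called higher or lower where it exceeded a fold change of 1.5 by glmTreat at a Benjamini-Hochberg adjusted p below 0.05. By that rule 2820 genes (22.1% of those tested) were higher on day 4 and 2265 (17.8%) were lower. Separately, a gene was counted as having no overlap where its lowest library-size-corrected level on one side exceeded the highest on the other, and the log2 distance between those nearest samples is called the gap. Levels are printed as RPKM (read counts scaled to exon length and to library size). When libraries were scaled by their total counts alone, the median difference over all genes moved by -0.11 and the share of calls that were higher changed from 55.5% to 48.6%.

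The 3 genes chosen to mark the comparison are described first. Ighg3 (Entrez gene 380795, chr12:113357442-113361232 in GRCm38), the constant region of IgG3, stood at 0.882 and 1.7 RPKM at 3 h, 7.7 and 7.82 at 10 h and 8.56 and 13.8 at 33 h, against 1588 and 2203 RPKM in expanded cells and 3972 and 5402 in plasmablasts. Every day 4 sample was more than 100-fold above every undivided one, with a log2 fold change of 9.25 (SE 0.20, edgeR adjusted p = 3.2e-11). Jchain (chr5:88519809-88527897), which encodes the joining chain of secreted IgM and IgA, was at 18.9 and 23.6 RPKM at 3 h, 32.8 and 17.7 at 10 h and 7.22 and 9.43 at 33 h, against 289.6 and 372 RPKM in expanded cells and 8216 and 7779 in plasmablasts. The groups did not overlap and the gap was 3.14, with a log2 fold change of 6.62 (SE 0.23, edgeR adjusted p = 2.04e-09), and plasmablasts exceeded expanded cells by 4.60 on the log2 scale. Bcl6 (chr16:23965050-23988866), the repressor that maintains germinal centre B cells, stood at 50.8 and 48.5 RPKM at 3 h, 17.2 and 20.2 at 10 h and 9.91 and 7.0 at 33 h, and at 1.77 and 1.65 RPKM in expanded cells and 2.91 and 2.68 in plasmablasts. All 4 day 4 samples were below all 6 undivided ones, with a log2 fold change of -3.18 (SE 0.11, edgeR adjusted p = 1.1e-10) and a gap of 1.26, and the samples nearest to day 4 were those of 33 h.

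**Figure D1:**
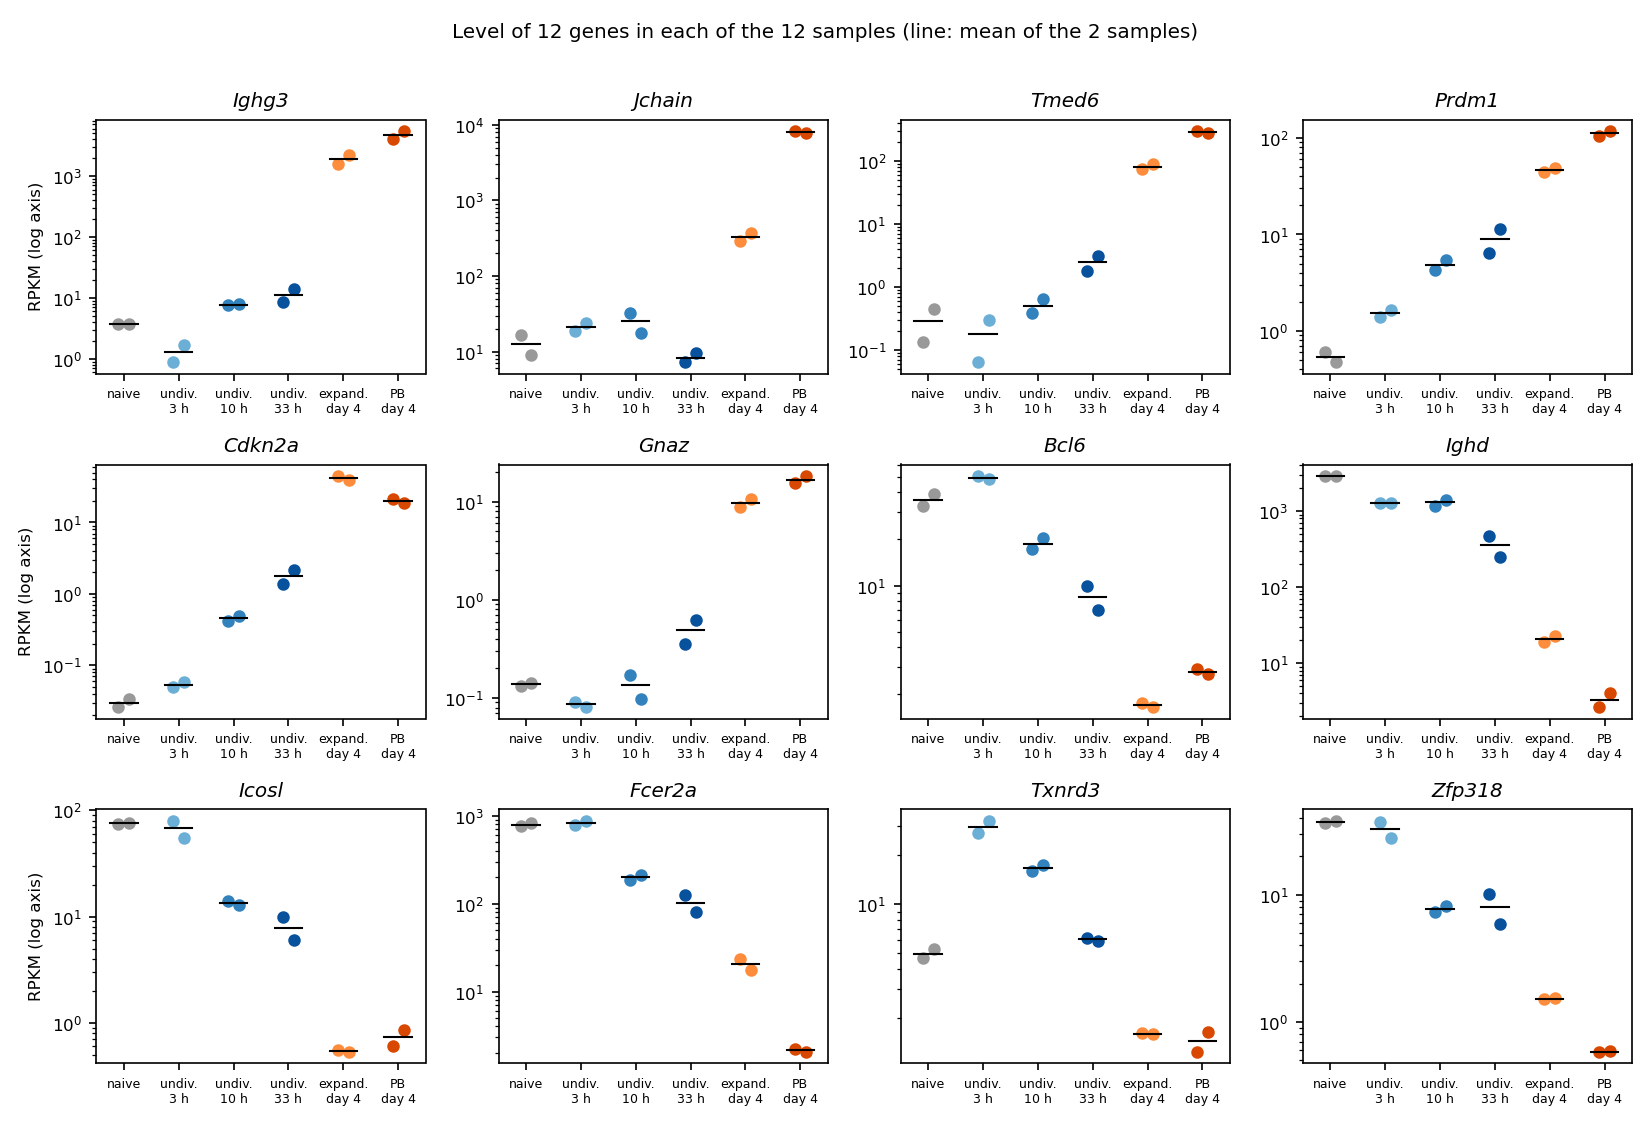
Levels of 12 genes in each of the 12 samples, in RPKM on a log axis, with stages along the x axis and 1 point per sample. A short line marks the mean of the 2 samples of a stage. In the first 6 genes (Ighg3, Jchain, Tmed6, Prdm1, Cdkn2a, Gnaz) the 4 day 4 points lie above the 6 undivided points, and in the other 6 (Bcl6, Ighd, Icosl, Fcer2a, Txnrd3, Zfp318) they lie below them.

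The sort markers and markers of other cells were read next. Cd22, used to sort the day 4 cells, stood at 101 and 96.1 RPKM in expanded cells and 0.432 and 0.368 in plasmablasts, and Sdc1, which encodes CD138, at 1.27 and 1.71 in expanded cells and 47.6 and 48.0 in plasmablasts. Both overlapped with the undivided stages, where Cd22 ran from 38.2 to 238 RPKM and Sdc1 from 0.441 to 8.3. Summed B cell markers reached 4140 to 5180 CPM (counts scaled to library size) in undivided samples and 2050 to 4410 on day 4. Plasmablast markers, summed to 97.3 to 393 CPM in undivided samples and 3360 to 20100 on day 4. Cd22 and Sdc1 thus followed the day 4 gates, and B cell markers were found in every sample. The plasmablast sum did not follow the CD138 gate alone: expanded cells had 3360 and 4320 CPM, of which Ighg3 gave 1820 and 2510. Cd69, whose protein was used to sort the undivided cells, was at 269.5 and 263.5 RPKM at 3 h. It was at 30.4 and 33.25 RPKM at 10 h and 16.9 and 14.6 at 33 h, against 35.2 and 32.55 in naive cells. Summed T cell markers were at 34.4 to 71 CPM in undivided samples and 78.5 to 92.4 on day 4. In plasmablasts 64.3 and 71.6 CPM of the T cell sum came from Cd28 alone, while 4 of the 12 T cell markers were at or below 3 counts in all 10 activated samples. In expanded cells Cd2 (53.8 and 47.4 CPM) and Lck (34.1 and 37.8) made up most of the sum. Of the defining T cell genes, Cd3e, Cd3d and Cd8a did not exceed 0.239 CPM in any of the 10 samples, while Cd3g was at 0 to 0.0276 CPM in undivided samples and 0.263 to 1.02 on day 4, and Cd4 at 0 in every undivided sample and 0.0853 to 0.372 on day 4. The part of T cell RNA in the results was not tested. Myeloid markers summed to 4.86 to 32.3 CPM in undivided samples and 15.7 to 46.3 on day 4, with 9 of 13 at or below 3 counts in all 10. Erythroid markers stayed between 0.565 and 2.43 CPM in the 10 activated samples, against 148 and 199 in naive cells, and the NK cell sum did not exceed 5.14 CPM.

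In all, 1824 genes (14.3% of those tested) were higher on day 4 with no overlap of samples, and 1930 (15.1%) were lower. Those that also passed glmTreat numbered 1547 (12.1%) and 1411 (11.1%). The 14.3% and 15.1% without overlap, and the 22.1% and 17.8% called, are the background for the gene lists below. Genes that were higher had larger differences: their median log2 fold change was 1.74 (quartiles 0.989 and 2.99) and their median gap 0.348, against -0.979 (quartiles -1.46 and -0.683) and 0.228 for those that were lower. The gap exceeded 1 for 372 higher and 79 lower genes, and exceeded 2 for 110 and 3. The lower genes were the more abundant ones, with a median average log2 CPM of 5.73 against 4.04 for the higher and 4.61 for all tested genes. In 92 of the higher genes all 6 undivided samples held at most 3 counts, and in 30 of the lower genes all 4 day 4 samples did. Some activated stage held at most 3 counts in both samples for 321 of the higher and 73 of the lower genes. The medians above include these genes. At the edge of the rule the sides nearly touched: Trappc1, just inside, had a gap of 4.80e-05 with a log2 fold change of 0.99, and Paf1, with a gap of 0.00013 and a log2 fold change of -0.30, was counted as lower. Just outside it, the nearest samples of Setdb2 overlapped by a gap of -0.000647 (log2 fold change 0.62) and those of Ptcd1 by -0.000637 (-0.26).

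The 33 h samples were the closest undivided ones. For 66.8% of the higher and 71.3% of the lower genes the undivided stage nearest to day 4 was 33 h, against 51.8% of all tested genes. When day 4 was set against 33 h alone, 1798 genes (14.1%) were called higher and 1558 (12.2%) lower, and of the no-overlap genes 62.3% of the higher and 40.1% of the lower ones were among them. A stricter rule, passing glmTreat in all 6 pairings of a day 4 with an undivided stage, left 472 genes (3.7%) higher and 156 (1.22%) lower.

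These comparisons share the day 4 samples. Within day 4, plasmablasts were called higher than expanded cells for 1776 genes (13.9%) and lower for 1553 (12.2%). Of the no-overlap genes on the higher side, 669 (36.7%) were also higher in plasmablasts than in expanded cells, 42 (2.3%) were lower in plasmablasts and 1113 (61%) had no call. On the lower side, 409 (21.2%) were lower still in plasmablasts, 8 were higher there and 1513 (78.4%) had no call.

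**Figure D2:**
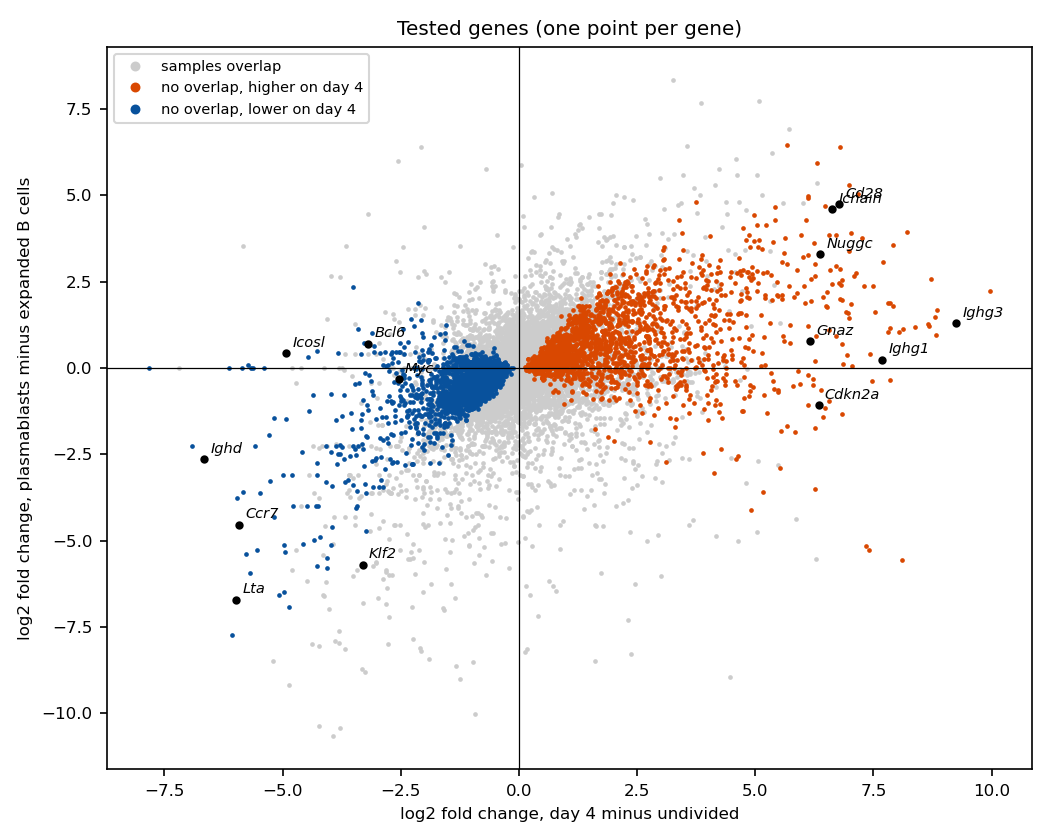
Each point is one of the 12750 tested genes, with the log2 fold change of day 4 minus undivided cells on the x axis and of plasmablasts minus expanded cells on the y axis, coloured by whether the samples of the 2 sides overlapped. Genes with no overlap lie to the left and right, and on the right they reach further upward, where plasmablasts exceeded expanded cells.

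Among immunoglobulin constant genes and Jchain, 11 of 12 tested genes rose (91.7%, against 22.1% of all tested genes) and 1 fell (8.33%, against 17.8%). The median log2 fold change was 2.96 against 0 over all genes. Ighg3, Ighg1, Ighg2b and Jchain had the largest rises of the list, while the gamma gene Ighg2c rose by 2.75, below the median. Ighg1 (chr12:113326541-113330523) was at 0.302 and 0.355 RPKM at 3 h, 0.605 and 0.411 at 10 h and 0.875 and 1.54 at 33 h, and at 81.5 and 142 RPKM in expanded cells and 109 and 156 in plasmablasts. Its day 4 samples were all far above the undivided ones (log2 fold change 7.69, SE 0.25, edgeR adjusted p = 6.93e-10), yet plasmablasts and expanded cells overlapped. Ighg2b stood at 2.23 and 2.26 RPKM at 3 h, 8.88 and 8.37 at 10 h and 18.2 and 25.7 at 33 h, and at 459 and 578 RPKM in expanded cells and 1547 and 1676 in plasmablasts, with a log2 fold change of 6.93. The gamma genes share sequence, so the split of reads among them is uncertain, and these counts do not separate germline from switched transcripts. Ighm, the mu constant region, was abundant already in undivided cells, at 3591 to 6891 RPKM, and rose to 12150 and 14420 in expanded cells and 52150 and 45990 in plasmablasts. The kappa gene Igkc rose by 3.17 on the log2 scale. Iglc3 was the member that passed glmTreat while its samples overlapped.

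Ighd (chr12:113407535-113416324), the delta constant region of naive B cells, went the other way and had the largest gap of the lower genes ranked for naming. It stood at 1287 and 1291 RPKM at 3 h, 1185 and 1416 at 10 h and 474 and 246 at 33 h, and at 19.2 and 22.9 RPKM in expanded cells and 2.65 and 3.99 in plasmablasts. The 33 h samples were the lowest undivided ones and were still more than 10 times the highest day 4 sample (log2 fold change -6.65, SE 0.23, edgeR adjusted p = 2.17e-09). Ighd and Ighm share a locus and a primary transcript. Zfp318, a regulator of IgD expression, had no overlap either, at 37.5 and 27.9 RPKM at 3 h, 7.37 and 8.2 at 10 h and 10.1 and 5.88 at 33 h, and 1.51 and 1.54 RPKM in expanded cells and 0.585 and 0.589 in plasmablasts (log2 fold change -3.74). Constant genes and Jchain together took 0.733% to 1.35% of all counts in undivided samples, 2.71% and 3.31% in expanded cells, and 11.5% and 11.1% in plasmablasts.

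Igha, the alpha constant region, showed another course. It was at 12.1 and 9.69 RPKM in naive cells, 1.02 to 1.68 in the undivided activated samples, 7.21 and 6.64 in expanded cells and 21.4 and 39.0 in plasmablasts, so that naive samples lay within the day 4 range. Of the 29 tested genes of class switching and end joining, 4 were called higher (13.8%) and 3 lower (10.3%), both shares under those of all tested genes. Lig4, the ligase of end joining, rose from a range of 2.32 to 3.38 RPKM in undivided samples to 8.68 and 9.1 in expanded cells and 12.1 and 12.1 in plasmablasts without overlap. Apex1, a nuclease of base excision repair, fell from a range of 62.1 to 111 RPKM to 47.9 and 40.4 in expanded cells and 14.7 and 14.8 in plasmablasts.

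Outside the immunoglobulin loci, the widest gaps on the higher side belonged to genes of varied function. Tmed6 (chr8:107061484-107065644), a member of the TMED family of cargo proteins of the early secretory pathway, was at 0.0646 and 0.304 RPKM at 3 h, 0.385 and 0.643 at 10 h and 1.84 and 3.14 at 33 h, and at 75.6 and 89.5 RPKM in expanded cells and 300.4 and 278 in plasmablasts. Among the genes ranked for naming its gap of 4.56 was the third largest (log2 fold change 7.91, SE 0.18, edgeR adjusted p = 1.15e-11). Gnaz, an alpha subunit of inhibitory G proteins, stood at 0.0916 and 0.0809 RPKM at 3 h, 0.171 and 0.0977 at 10 h and 0.354 and 0.621 at 33 h, and at 8.76 and 10.7 RPKM in expanded cells and 15.3 and 18.2 in plasmablasts (log2 fold change 6.16). It had no call between plasmablasts and expanded cells, whereas Nuggc, a nuclear GTPase of germinal centre B cells, went from a range of 0.0824 to 0.311 RPKM in undivided samples to 3.01 and 4.4 in expanded cells and 35.5 and 36.8 in plasmablasts. Ckb, the brain-type creatine kinase, and Itgb5, the integrin beta 5 chain, had the same order of stages. Ckb was at 0.0844 to 1.82 RPKM in undivided samples, 16.3 and 19.1 in expanded cells and 96.0 and 109.9 in plasmablasts, and Itgb5 was at 0.10 to 0.191 RPKM in undivided samples, 1.42 and 1.62 in expanded cells and 16.4 and 16.5 in plasmablasts. Cd28, known as the T cell costimulatory receptor and also made by plasma cells, rose from a range of 0 to 0.0735 RPKM to 0.597 and 1.03 in expanded cells and 20.3 and 23.1 in plasmablasts.

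Trp73 and Cdkn2a, members of the p53 and CDK inhibitor families, had at most 2 counts per sample at 3 h, so levels are given without a fold change. Trp73 was at 0 and 0.00617 RPKM at 3 h, 0.133 and 0.154 at 10 h and 0.214 and 0.38 at 33 h, and at 4.78 and 5.54 RPKM in expanded cells and 8.1 and 8.65 in plasmablasts. Cdkn2a, which encodes p16INK4a and p19ARF, was at 0.0491 and 0.0578 RPKM at 3 h, 0.421 and 0.489 at 10 h and 1.4 and 2.16 at 33 h, and at 44.7 and 39.2 RPKM in expanded cells and 21.2 and 18.8 in plasmablasts. The gaps were 3.61 and 3.09, and Cdkn2a was lower in plasmablasts than in expanded cells (log2 difference -1.07, edgeR adjusted p = 0.00462).

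Of 18 tested plasma cell regulators, 14 rose (77.8%, against 22.1% of all tested genes) and 0 fell (against 17.8%), with a median log2 fold change of 2.36. Without overlap 13 of the list were higher and 1 lower, where the shares of all tested genes were 14.3% and 15.1%. The 13 include Ikzf3, which did not pass glmTreat. The lower gene was Bmi1, with a log2 fold change of -0.54 and no call. Prdm1 was at 1.4 and 1.66 RPKM at 3 h, 4.32 and 5.4 at 10 h and 6.42 and 11.5 at 33 h, and at 44.6 and 48.4 RPKM in expanded cells and 105 and 117 in plasmablasts, and the highest undivided sample was below the lowest day 4 sample by 1.96 log2 units. Xbp1, the transcription factor of the unfolded protein response, was at 28.6 and 56.3 RPKM at 3 h, 61.7 and 48.2 at 10 h and 109 and 168 at 33 h, and at 426 and 486 RPKM in expanded cells and 2231 and 2439 in plasmablasts. Creb3l2 and Creb3l1, ER-anchored transcription factors, rose with log2 fold changes of 4.70 and 4.25, with Creb3l2 at 0.277 to 3.45 RPKM in undivided samples and 49.0 and 55.3 in plasmablasts. All 4 of these genes were also called higher in plasmablasts than in expanded cells. Bhlhe41, a repressor of the basic helix-loop-helix family, rose without overlap from a range of 7.14 to 18.5 RPKM but was higher in expanded cells (113 and 115) than in plasmablasts (58.7 and 59.0). Irf4, a factor needed for plasma cells, was not called, at 709 and 519 RPKM at 3 h, 128 and 136 at 10 h and 73.3 and 102 at 33 h, and at 146 and 163 RPKM in expanded cells and 242 and 290.2 in plasmablasts. Its 3 h samples exceeded every day 4 sample.

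Of the 31 tested genes listed under B cell and germinal centre identity, 0 rose, against 22.1% of all tested genes. A fall was called for 18 (58.1%, against 17.8%). Without overlap 9 were lower, where the share of all tested genes was 15.1%, and the median log2 fold change was -0.929. These counts depend on the list a gene was put in. Mef2b and Pou2af1, listed with the plasma cell regulators, rose by 2.32 and 2.04 without overlap. Spib, an Ets factor of B cells, was at 624 and 532 RPKM at 3 h, 216 and 206 at 10 h and 242 and 176 at 33 h, and at 118 and 119 RPKM in expanded cells and 2.68 and 2.57 in plasmablasts. The expanded cells were close below the undivided samples and the plasmablasts far below (log2 fold change -4.06, and -5.50 between plasmablasts and expanded cells). Klf2, a regulator of lymphocyte trafficking and quiescence, was at 63.5 to 106 RPKM in undivided samples, 63.0 and 53.5 in expanded cells and 1.07 and 1.17 in plasmablasts, and the gap was only 0.01. Pax5, at 123 to 225 RPKM in undivided samples, fell to 77.2 and 75.5 in expanded cells and 7.54 and 6.42 in plasmablasts. These 3 genes were called lower in plasmablasts than in expanded cells, whereas Bcl6 had no call between them and was somewhat higher in plasmablasts. Mef2c and Pou2f1 had no overlap in the other direction, at log2 fold changes of 0.66 and 0.43 that did not pass glmTreat.

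The genes of ER entry and protein folding moved together. Of 55 tested, 45 rose (81.8%, against 22.1% of all tested genes) and 0 fell (against 17.8%). Without overlap 40 were higher, where the share of all tested genes was 14.3%. The median log2 fold change was 1.79 against 0 over all genes. Against the 33 h samples alone 46 were called higher, and 47 were higher in plasmablasts than in expanded cells. Fkbp11, a prolyl isomerase of secretory cells, was at 0.227 and 1.03 RPKM at 3 h, 0.988 and 0.575 at 10 h and 5.32 and 9.3 at 33 h, and at 11.5 and 13.7 RPKM in expanded cells and 229 and 219 in plasmablasts. Derl3, a component of the retrotranslocation machinery, was at 1.96 and 2.14 RPKM at 3 h, 3.53 and 2.26 at 10 h and 19.5 and 26.9 at 33 h, and at 57.0 and 71.9 RPKM in expanded cells and 379 and 415 in plasmablasts. In both genes the expanded cells lay nearer to the 33 h samples than to the plasmablasts. Mzb1, a cochaperone for immunoglobulin, rose by 3.97 to 8643 and 8912 RPKM in plasmablasts, and Sdf2l1 by 3.75 to 663 and 641. The abundant chaperones were high before division. Hspa5 (BiP) stood at 647 and 697 RPKM at 3 h, 433 and 378 at 10 h and 515 and 670.2 at 33 h, and at 796 and 838 RPKM in expanded cells and 2349 and 2309 in plasmablasts, with a gap of 0.19 and a log2 fold change of 1.34. Canx, the lectin chaperone calnexin, was not called, with 100.5 to 211 RPKM in undivided samples, 151 and 162 in expanded cells and 183 and 178 in plasmablasts.

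The ER stress response element (ERSE), to which NF-Y and ATF6 bind, holds CCAAT and CCACG 9 bases apart. On either strand it was found in 16 of 12567 RefSeq promoters of tested genes (0.127%), in windows from 250 bases before to 50 after the start. It occurred in 10 of 1828 promoters of higher no-overlap genes (0.547%), in 2 of 1945 of lower ones (0.103%), and in 10 of the 52 promoters of the ER list (19.2%), which belonged to 45 genes. A match describes letters only. The matches of the ER list are shown because the list holds most promoters with the element, and their genes can be read against their values: 9 were higher without overlap and Canx was not. Hsp90b1 has 2 matches, of which the first is shown. Each stretch is from RefSeq on GRCm38.p6, read 5′ to 3′ along the gene's strand with 8 bases on each side, with the 2 parts of the element in capitals.
Derl3, chr10:75893234-75893268, plus strand: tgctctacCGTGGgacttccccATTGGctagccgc
Hsp90b1, chr10:86705630-86705664, minus strand: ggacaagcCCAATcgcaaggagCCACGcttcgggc
Creld2, chr15:88819512-88819546, plus strand: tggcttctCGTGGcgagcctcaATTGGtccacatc
Dnajc3, chr14:118937819-118937853, plus strand: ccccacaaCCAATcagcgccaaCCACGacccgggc
Pdia6, chr12:17266483-17266517, plus strand: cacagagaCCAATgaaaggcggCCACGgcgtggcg
Ero1b, chr13:12565674-12565708, plus strand: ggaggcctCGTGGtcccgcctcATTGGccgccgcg
Calr, chr8:84847067-84847101, minus strand: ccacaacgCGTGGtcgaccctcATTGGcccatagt
Syvn1, chr19:6046524-6046558, plus strand: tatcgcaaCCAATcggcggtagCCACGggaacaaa
Hspa5, chr2:34772017-34772051, plus strand: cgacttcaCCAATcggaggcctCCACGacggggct
Canx, chr11:50325792-50325826, minus strand: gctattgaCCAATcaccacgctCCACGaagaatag

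Both orientations occurred, with CCAAT first in 6 genes and the reverse complement in 4. The log2 fold changes of these genes ran from 0.27 in Canx and 1.34 in Hspa5 to 4.94 in Derl3, and Hsp90b1 (3.06), which encodes GRP94, went from a range of 174 to 606 RPKM in undivided samples to 1019 and 1122 in expanded cells and 4254 and 4498 in plasmablasts. The whole window of Hspa5, chr2:34771840-34772139 on the plus strand of GRCm38.p6, is given for context, with the matched element in capitals.
Hspa5 promoter: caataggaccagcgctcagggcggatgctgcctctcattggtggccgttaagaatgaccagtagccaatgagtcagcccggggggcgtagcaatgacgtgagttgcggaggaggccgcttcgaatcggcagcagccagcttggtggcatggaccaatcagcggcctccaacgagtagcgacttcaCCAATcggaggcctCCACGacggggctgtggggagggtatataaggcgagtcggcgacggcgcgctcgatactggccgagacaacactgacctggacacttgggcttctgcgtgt

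Genes further along the secretory route moved the same way. Of 37 tested genes of N-glycosylation, 26 rose (70.3%, against 22.1% of all tested genes) and 0 fell (median log2 fold change 1.07). In plasmablasts 28 were higher than in expanded cells, where the share of all tested genes was 13.9%. Rpn1, a subunit of the oligosaccharyltransferase, was at 73.9 and 93.2 RPKM at 3 h, 87.3 and 81.5 at 10 h and 134 and 166 at 33 h, and at 237 and 246 RPKM in expanded cells and 1015 and 1061 in plasmablasts. Krtcap2, another subunit of that complex, rose by 2.22, and Fut8, the core fucosyltransferase, by 2.18. In vesicle traffic 31 of 49 rose (63.3%, against 22.1% of all tested genes) and 1 fell (2.04%, against 17.8%), with a median of 0.846. Sec24d, a cargo adaptor of COPII coats, was at 0.463 and 0.357 RPKM at 3 h, 0.921 and 0.576 at 10 h and 2.88 and 4.48 at 33 h, and at 20.4 and 26.5 RPKM in expanded cells and 100.2 and 103 in plasmablasts, while its paralog Sec24b fell from a range of 20.7 to 42.5 RPKM to 15.5 and 16.9 in expanded cells and 12.3 and 14.2 in plasmablasts. Lman1, the cargo receptor ERGIC-53, and Bet1, a SNARE of that step, rose by 2.54 and 1.78. Kdelr3, a retrieval receptor for ER proteins, had at most 8 counts in any undivided sample and reached 0.354 and 0.70 RPKM in expanded cells and 7.52 and 8.21 in plasmablasts.

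Ribosome biogenesis had the largest share of lower calls among the lists. Of 80 tested genes, 64 fell (80%, against 17.8% of all tested genes) and 0 rose (against 22.1%). Without overlap 63 were lower, where the share of all tested genes was 15.1%, and the median log2 fold change was -1.11. Against 33 h alone 48 were lower, and 46 were lower in plasmablasts than in expanded cells. Heatr1, needed to transcribe and process pre-rRNA, was at 117 and 132 RPKM at 3 h, 86.0 and 85.3 at 10 h and 64.3 and 64.9 at 33 h, and at 35.8 and 34.0 RPKM in expanded cells and 17.6 and 16.6 in plasmablasts. Polr1b, a core subunit of RNA polymerase I, was at 104 and 128 RPKM at 3 h, 58.3 and 55.8 at 10 h and 47.7 and 53.0 at 33 h, and at 25.7 and 25.5 RPKM in expanded cells and 15.1 and 14.7 in plasmablasts. In both genes the level was highest at 3 h and the naive samples, at 30.5 and 31.2 RPKM for Heatr1 and 16.6 and 15.9 for Polr1b, were below the expanded cells. Rrp9 and Pwp2, which act in the small-subunit processome, fell by 1.85 and 1.82 on the log2 scale.

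The E-box CACGTG, the letters to which Myc and Max bind, was looked for in the same windows. Being a palindrome, it reads alike on both strands. It was present in 15 of 79 promoters of 67 ribosome biogenesis genes (19.0%), 12.7% of the promoters of lower no-overlap genes, 8.97% of those of higher ones and 9.91% of all. The lower genes whose promoters hold it with the largest falls in this list were Grwd1 (-1.64), Tsr1 (-1.46), Nop2 (-1.45) and Utp18 (-1.42), and their stretches are shown with the E-box in capitals.
Grwd1, chr7:45830742-45830763, minus strand: cggagtcgCACGTGtgaaaccg
Tsr1, chr11:74898096-74898117, plus strand: ttggtgcaCACGTGgactgcag
Nop2, chr6:125131815-125131836, plus strand: ccctggatCACGTGtgttccgg
Utp18, chr11:93885773-93885794, minus strand: gcgccggtCACGTGgcttgcgg

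In the Myc network itself 5 of 11 tested genes rose (45.5%, against 22.1% of all tested genes) and 4 fell (36.4%, against 17.8%). Myc was at 835 and 706 RPKM at 3 h, 138 and 139 at 10 h and 74.2 and 78.5 at 33 h, and at 37.4 and 39.8 RPKM in expanded cells and 27.0 and 35.0 in plasmablasts. The steps down lay mostly between 3 h and 10 h, and every day 4 sample was below the 33 h samples (log2 fold change -2.54, gap 0.90). Max, the partner of Myc, fell by 0.98. Among the genes of Mxd repressors, which pair with Max, Mxd4, Mxd1 and Mxd3 were called higher. Mxd4 was at 12.7 and 9.69 RPKM at 3 h, 6.7 and 6.62 at 10 h and 37.2 and 20.1 at 33 h, and at 43.4 and 48.3 RPKM in expanded cells and 116 and 117 in plasmablasts. Mxd1 rose by 1.32. Mxd3 overlapped, at 12.7 and 12.3 RPKM at 33 h against 12.1 and 12.4 in expanded cells. The list members Mnt and Mga fell by 0.91 and 0.85, and Mxi1 had no call. Mxd4 was also high in naive cells, at 86.3 and 98.9 RPKM.

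**Figure D3:**
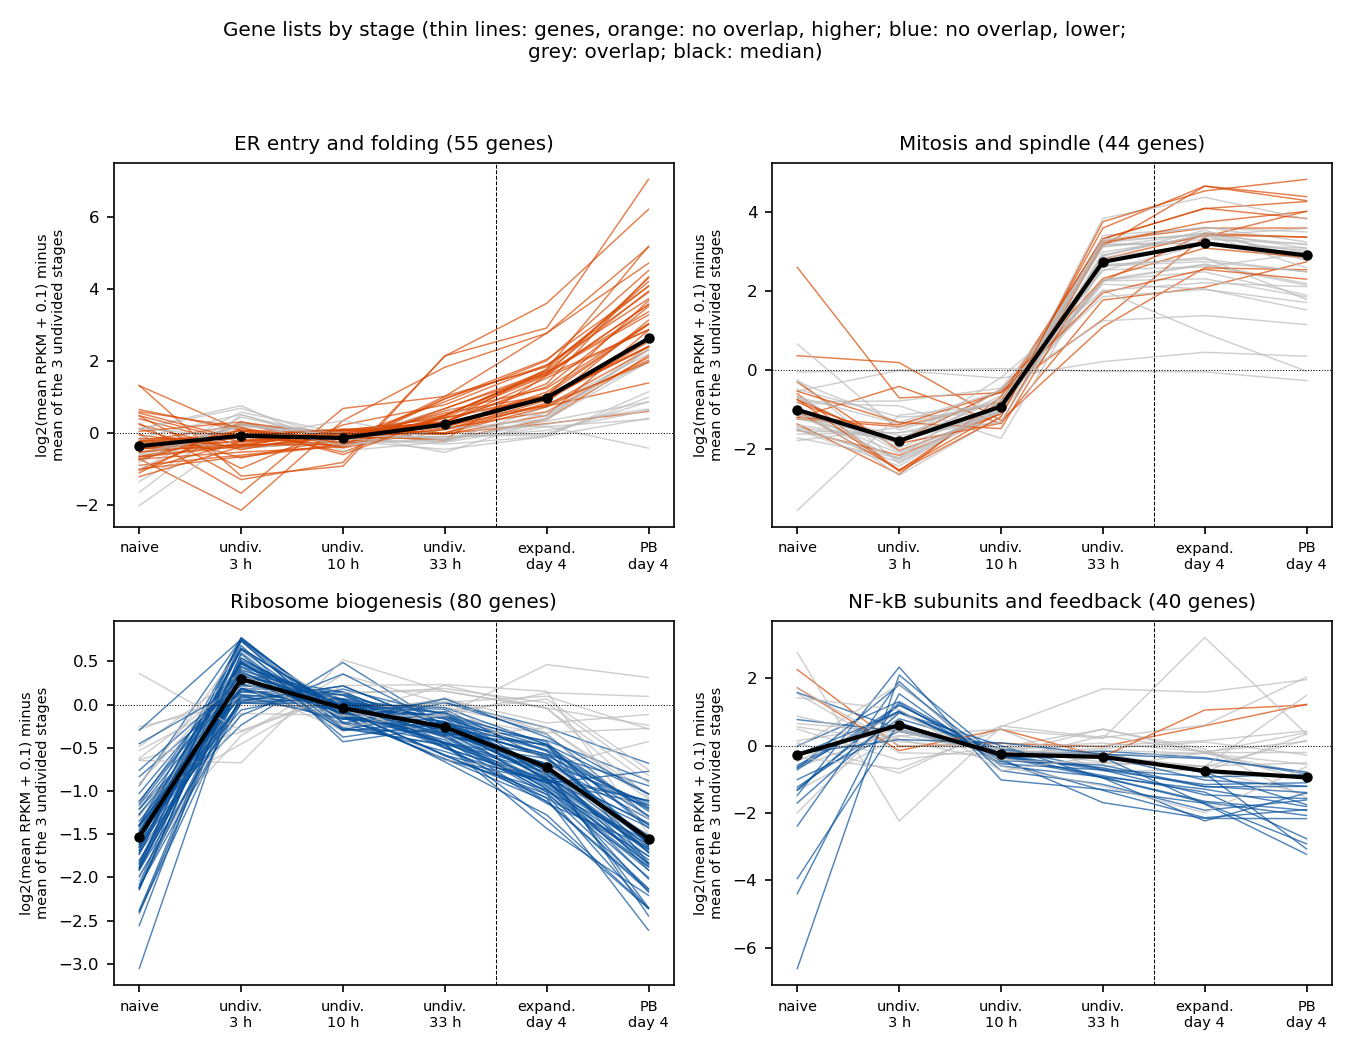
Course of 4 gene lists over the 6 stages, where a thin line is a gene and the thick black line the median of the list, as log2 of mean RPKM plus 0.1 relative to the mean of the 3 undivided stages. Most ER genes climb to their highest level in plasmablasts, the medians of ribosome biogenesis and NF-kB genes are highest at 3 h and lowest in plasmablasts, and mitosis genes are already high at 33 h.

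Cell cycle genes were split by what the 33 h cells already expressed. In the comparison with all undivided stages, 41 of 44 tested mitosis and spindle genes rose (93.2%, against 22.1% of all tested genes) and 0 fell. The median log2 fold change was 3.15, but 14 were higher without overlap, where the share of all tested genes was 14.3%. Against 33 h alone 5 were called higher and 1 lower, both under the 14.1% and 12.2% of all tested genes. Hmmr, a spindle protein, was at 0.285 and 0.193 RPKM at 3 h, 0.913 and 0.757 at 10 h and 16.3 and 30.8 at 33 h, and at 50.8 and 48.3 RPKM in expanded cells and 41.0 and 41.2 in plasmablasts. Ube2c, the ubiquitin-conjugating enzyme of the anaphase-promoting complex, was at 1.92 and 1.2 RPKM at 3 h, 4.2 and 4.2 at 10 h and 81.3 and 184 at 33 h, and at 225 and 231 RPKM in expanded cells and 279 and 280.1 in plasmablasts. In both genes the jump came between 10 h and 33 h, and the 33 h replicates differed from each other by more than the higher one differed from the nearest day 4 sample. Ccnb2, a mitotic cyclin, had a wider margin, at 23.1 and 42.6 RPKM at 33 h against 94.2 and 93.2 in expanded cells and 72.3 and 73.2 in plasmablasts. Of 48 DNA replication genes, 28 were called higher on average (58.3%, against 22.1% of all tested genes). In either direction 0 had no overlap. Against 33 h 0 were higher and 8 lower, where the shares of all tested genes were 14.1% and 12.2%. Mcm2, a subunit of the replicative helicase, shows that course at 36.8 and 34.4 RPKM at 3 h, 66.7 and 53.2 at 10 h and 134 and 135 at 33 h, and at 108 and 107 RPKM in expanded cells and 88.6 and 91.0 in plasmablasts.

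Among G1 cyclins, kinases and inhibitors 13 of 25 rose (52%, against 22.1% of all tested genes) and 3 fell (12%, against 17.8%), and 7 were higher without overlap. Against 33 h alone 4 were higher and 4 lower, where the shares of all tested genes were 14.1% and 12.2%. The median log2 difference was -0.0941. Besides Cdkn2a the no-overlap genes included the inhibitors Cdkn2b and Cdkn2c and the repressor E2f7. Cdkn2b, which encodes p15INK4b, was at 0.40 and 0.919 RPKM at 3 h, 3.52 and 4.2 at 10 h and 0.755 and 2.25 at 33 h, and at 6.74 and 6.55 RPKM in expanded cells and 5.2 and 6.08 in plasmablasts. E2f7 rose by 3.24, but its 33 h samples (3.04 and 3.19 RPKM) were just under the expanded cells (3.38 and 3.4). Cdk6, a G1 kinase, fell from a range of 7.52 to 17.0 RPKM in undivided samples to 5.03 and 4.99 in expanded cells and 3.5 and 3.6 in plasmablasts.

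Genes of NF-kB signalling were more often lower than higher on day 4. Of 40 tested NF-kB subunits, inhibitors and feedback genes, 21 fell (52.5%, against 17.8% of all tested genes) and 5 rose (12.5%, against 22.1%). Without overlap 20 were lower, where the share of all tested genes was 15.1%, and the median log2 fold change was -0.865. When set against 33 h alone, 12 were lower and 4 higher, where the shares of all tested genes were 12.2% and 14.1%. Nfkb1, which encodes p105 and p50, was at 552 and 536 RPKM at 3 h, 192 and 187 at 10 h and 132 and 122 at 33 h, and at 90.5 and 89.9 RPKM in expanded cells and 33.6 and 35.4 in plasmablasts. Traf1, an adaptor of TNF receptors, was at 202 and 212 RPKM at 3 h, 107 and 96.2 at 10 h and 99.7 and 103 at 33 h, and at 38.5 and 38.5 RPKM in expanded cells and 12.9 and 14.3 in plasmablasts, with naive cells at 8.6 and 7.85 RPKM. Nfkbid and Nfkbiz, nuclear inhibitor-like proteins, fell by 2.32 and 2.17, and Nfkbiz stood at 39.2 and 33.8 RPKM at 33 h against 26.8 and 25.9 in expanded cells. Tifa, a TRAF-interacting adaptor, rose from a range of 3.94 to 9.3 RPKM to 14.3 and 13.2 in expanded cells and 16.0 and 14.5 in plasmablasts. Cd14, the coreceptor for LPS, was at most 1 count in any undivided sample and at most 7 on day 4, and is counted among the no-overlap genes without a fold change.

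Of 40 immediate early genes 15 fell (37.5%, against 17.8% of all tested genes) and 10 rose (25%, against 22.1%). Without overlap 5 were lower and 1 higher, both under the 15.1% and 14.3% of all tested genes. Against 33 h alone the balance turned, with 15 higher and 6 lower, where the shares of all tested genes were 14.1% and 12.2%. The median log2 difference was 0.57, and 13 were higher and 3 lower in plasmablasts than in expanded cells. Nr4a1, an orphan nuclear receptor induced by antigen receptor and TLR signals, was at 495 and 308 RPKM at 3 h, 10.6 and 12.1 at 10 h and 8.61 and 5.56 at 33 h, and at 1.49 and 2.42 RPKM in expanded cells and 2.09 and 3.13 in plasmablasts. Its average difference of -3.82 rests largely on the 3 h samples, though the 33 h samples were still above day 4. Klf10 and Mafk were also highest at 3 h and parted from day 4 with gaps of 0.49 and 0.54. Dusp6, a phosphatase of ERK, went the other way from a range of 1.08 to 5.13 RPKM in undivided samples to 6.6 and 9.13 in expanded cells and 12.9 and 13.3 in plasmablasts, below the 22.8 and 27.4 of naive cells. Fos, listed with the plasma cell regulators, was called higher with overlapping samples.

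Cytokines fell in 11 of 26 tested genes (42.3%, against 17.8% of all tested genes) and rose in 2 (7.69%, against 22.1%). Tnf was at 29.4 and 31.3 RPKM at 3 h, 8.63 and 6.37 at 10 h and 12.9 and 10.7 at 33 h, and at 2.58 and 2.41 RPKM in expanded cells and 0.105 and 0.196 in plasmablasts. Expanded cells were below the 10 h samples and plasmablasts lower again (log2 fold change -4.48, SE 0.15, edgeR adjusted p = 7.4e-11). Lta, lymphotoxin alpha, fell from a range of 4.44 to 31.2 RPKM in undivided samples to 1.74 and 1.71 in expanded cells, and plasmablasts held at most 1 count. Cxcl10 and Osm fell by 2.69 and 2.03. The antiapoptotic Bcl2a1 genes, targets of NF-kB, had no overlap: Bcl2a1b was at 859 and 1051 RPKM at 3 h, 256 and 258 at 10 h and 228 and 176 at 33 h, and at 92.7 and 75.9 RPKM in expanded cells and 17.0 and 16.3 in plasmablasts, and Bcl2a1d and Bcl2a1a fell by 3.12 and 3.04. These 3 paralogs share reads, so the values of each are uncertain. In the survival list as a whole 6 of 21 rose (28.6%, against 22.1% of all tested genes) and 4 fell (19%, against 17.8%). Against 33 h alone 3 were higher and 4 lower, where the shares of all tested genes were 14.1% and 12.2%. The list had Bad (1.23) and Birc5, a protein of mitosis, on the higher side.

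Of 45 interferon response genes 24 fell (53.3%, against 17.8% of all tested genes) and 3 rose (6.67%, against 22.1%). The median log2 fold change was -0.947, and 12 were lower without overlap, where the share of all tested genes was 15.1%. Replicates of the undivided stages were far apart for several genes of the list. Ifit3 was at 0.865 and 4.21 RPKM at 3 h, 8.01 and 3.06 at 10 h and 9.48 and 6.1 at 33 h, and at 0.301 and 0.27 RPKM in expanded cells and 0.0212 and 0.0176 in plasmablasts. Oas1g was at 0.28 and 0.214 RPKM at 3 h, 1.02 and 0.226 at 10 h and 1.99 and 1.37 at 33 h, and at 0.113 and 0.0301 RPKM in expanded cells and 0 and 0 in plasmablasts. In both genes the first 10 h sample was more than 2.5 times the second, and plasmablasts held at most 1 count. Ifit3 and Ifit3b, and Oas1g and Oas1a, are close paralogs that share reads. Slfn1 had no overlap at 0.12 to 1.34 RPKM in undivided samples and at most 1 count on day 4, but its call was lost without the second 3 h sample (edgeR adjusted p = 0.0721). Isg20, an exonuclease, was higher without overlap, from a range of 4.86 to 27.3 RPKM in undivided samples to 28.4 and 35.1 in expanded cells and 241 and 246 in plasmablasts. Against 33 h alone 32 of the 45 were lower and 2 higher, where the shares of all tested genes were 12.2% and 14.1%.

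The interferon-stimulated response element, searched on both strands as GAAA, any 2 bases and GAAA, was in 19 of 41 promoters of 34 interferon genes (46.3%), against 3.23% of all promoters, 2.57% of those of higher and 3.6% of those of lower no-overlap genes. The stretches of the 4 members with a match and the largest falls among lower genes are shown, with the GAAA units or their reverse complements in capitals where they matched.
Ifit3, chr19:34583365-34583390, plus strand: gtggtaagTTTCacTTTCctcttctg
Oas1g, chr5:120887614-120887639, minus strand: cttctcggGAAAtgGAAActGAAAat
Ifit3b, chr19:34607761-34607786, plus strand: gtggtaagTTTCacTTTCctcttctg
Oas1a, chr5:120907528-120907553, minus strand: cttctcggGAAAtgGAAActGAAAat
The stretches of Ifit3 and Ifit3b are identical, and each of these promoters has 2 matches, of which the first is shown. Those of Oas1g and Oas1a are also identical, and their 2 matches overlap. Other motifs were near the background in both sets. The cyclic AMP response element, in its full palindromic form, was in 2.46% of higher and 3.24% of lower promoters against 3.13% of all, and the E2F letters TTT, any base and GCGC, searched on both strands, were in 1.97% and 2.62% against 2.48%. A kappa B consensus of GGG, any 5 bases and CC was in 65.3%, 67.8% and 66.3%. The GC content differed little (60.0%, 61.7% and 60.3%), and the CpG observed over expected ratio was 0.693 in higher, 0.816 in lower and 0.748 in all.

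Many genes of antigen presentation and T cell help were lower on day 4 than the average of the undivided stages. In the list of costimulation and MHC class II, 16 of 29 fell (55.2%, against 17.8% of all tested genes) and 5 rose (17.2%, against 22.1%). Without overlap 7 were lower and 2 higher, where the shares of all tested genes were 15.1% and 14.3%. Set against 33 h alone, 11 were lower and 4 higher, where the shares of all tested genes were 12.2% and 14.1%. Icosl, the ligand of ICOS, was at 79.7 and 55.4 RPKM at 3 h, 14.0 and 12.9 at 10 h and 9.81 and 5.97 at 33 h, and at 0.556 and 0.535 RPKM in expanded cells and 0.601 and 0.86 in plasmablasts. Every day 4 sample was below 1 RPKM and the gap of 2.77 was the second widest of the lower genes ranked for naming (log2 fold change -4.92, SE 0.19, edgeR adjusted p = 1.2e-09). Cd86 was at 117 and 116 RPKM at 3 h, 38.6 and 33.1 at 10 h and 17.2 and 14.3 at 33 h, and at 9.55 and 6.87 RPKM in expanded cells and 1.57 and 1.24 in plasmablasts. Slamf1 and Pdcd1lg2, which encodes PD-L2, fell by 3.46 and 3.85, and Cd40, the receptor for T cell help, from a range of 64.8 to 185 RPKM to 29.2 and 28.4 in expanded cells and 4.99 and 4.45 in plasmablasts. The MHC class II genes H2-Aa (-0.87), H2-Eb1 (-0.75), H2-Eb2, H2-Oa, H2-DMa, H2-DMb1 and H2-DMb2 were called lower, all with overlapping samples. H2-Ab1 (-0.62), H2-Ob (-0.25) and the invariant chain gene Cd74 (-0.15) had no call. H2-Aa and H2-Eb1 were at means of 6550 and 3019 RPKM at 3 h. At 10 h their means of 557.5 and 326.1 RPKM were below the 1194 and 844 of expanded cells. Cd24a, a heat stable antigen, and Cd48 rose by 1.36 and 0.91.

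Of 31 B cell receptor genes 12 fell (38.7%, against 17.8% of all tested genes) and 3 rose (9.68%, against 22.1%). Without overlap 6 were lower and 1 higher, where the shares of all tested genes were 15.1% and 14.3%. Cd72, an inhibitory coreceptor, was at 320.4 and 365 RPKM at 3 h, 271 and 289 at 10 h and 189.7 and 126 at 33 h, and at 76.7 and 76.9 RPKM in expanded cells and 20.7 and 19.7 in plasmablasts. Ptpn6 (SHP-1), the phosphatase that such coreceptors recruit, and Fcrl1 fell by 1.58 and 1.94. Cr2, complement receptor 2, was one of the 8 lower genes with more in plasmablasts than in expanded cells, at 15.1 to 66.2 RPKM in undivided samples, 4.09 and 3.93 in expanded cells and 8.62 and 9.92 in plasmablasts. Cd81, a tetraspanin, rose from a range of 54.1 to 101 RPKM to 107 and 111 in expanded cells and 203 and 194 in plasmablasts. In the TNF receptor family 5 of 20 fell (25%, against 17.8% of all tested genes) and 4 rose (20%, against 22.1%), near the background, and Tnfrsf21 (DR6) had a gap of 1.54.

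The other genes with the widest gaps on the lower side had no single function. Fcer2a, the low affinity IgE receptor CD23, was at 774 and 873 RPKM at 3 h, 187 and 209 at 10 h and 125 and 79.3 at 33 h, and at 23.4 and 17.8 RPKM in expanded cells and 2.23 and 2.06 in plasmablasts. Lfng, a glycosyltransferase that modifies Notch, fell by 4.58 from a range of 9.45 to 96.4 RPKM to 2.43 and 1.84 in expanded cells and 0.501 and 0.309 in plasmablasts. In these genes plasmablasts lay below expanded cells. Txnrd3, a thioredoxin reductase, was at 27.3 and 32.4 RPKM at 3 h, 15.9 and 17.4 at 10 h and 6.23 and 5.93 at 33 h, and at 1.61 and 1.59 RPKM in expanded cells and 1.24 and 1.63 in plasmablasts, with no call within day 4. Ttc28, Cd200 (an inhibitory ligand) and Treml2 likewise had no call within day 4 and fell by 2.81, 2.44 and 2.51. Sox12, a SoxC transcription factor, fell by 2.81, and Faap100, of the Fanconi anaemia core complex, by 2.67.

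Homing receptors changed in both directions, with 14 of 38 called higher (36.8%, against 22.1% of all tested genes) and 10 lower (26.3%, against 17.8%). Ccr10, a chemokine receptor of antibody-secreting cells in mucosa and skin, was at 0.129 and 0.133 RPKM at 3 h, 0.169 and 0.169 at 10 h and 0.15 and 0.132 at 33 h, and at 3.27 and 5.36 RPKM in expanded cells and 18.7 and 25.7 in plasmablasts. Ccr9, the receptor for the gut chemokine CCL25, went from a range of 0.0523 to 0.149 RPKM to 1.19 and 1.55 in expanded cells and 4.74 and 3.57 in plasmablasts. Gpr55, a lysophospholipid receptor, and Cd93, a receptor that long-lived plasma cells need, rose by 4.17 and 3.15, and all 4 were called higher in plasmablasts than in expanded cells. Ccr7, which guides B cells toward the T zone, was at 1056 and 1067 RPKM at 3 h, 310.3 and 366 at 10 h and 85.9 and 57.3 at 33 h, and at 23.8 and 23.2 RPKM in expanded cells and 0.965 and 1.05 in plasmablasts. Cxcr5, which guides them to follicles, fell by 2.52 and kept 63.5 and 58.3 RPKM in plasmablasts. Icam1, an adhesion molecule induced by NF-kB, was at 41.9 and 39.7 RPKM at 33 h, 32.1 and 31.4 in expanded cells and 23.6 and 26.3 in plasmablasts.

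**Figure D4:**
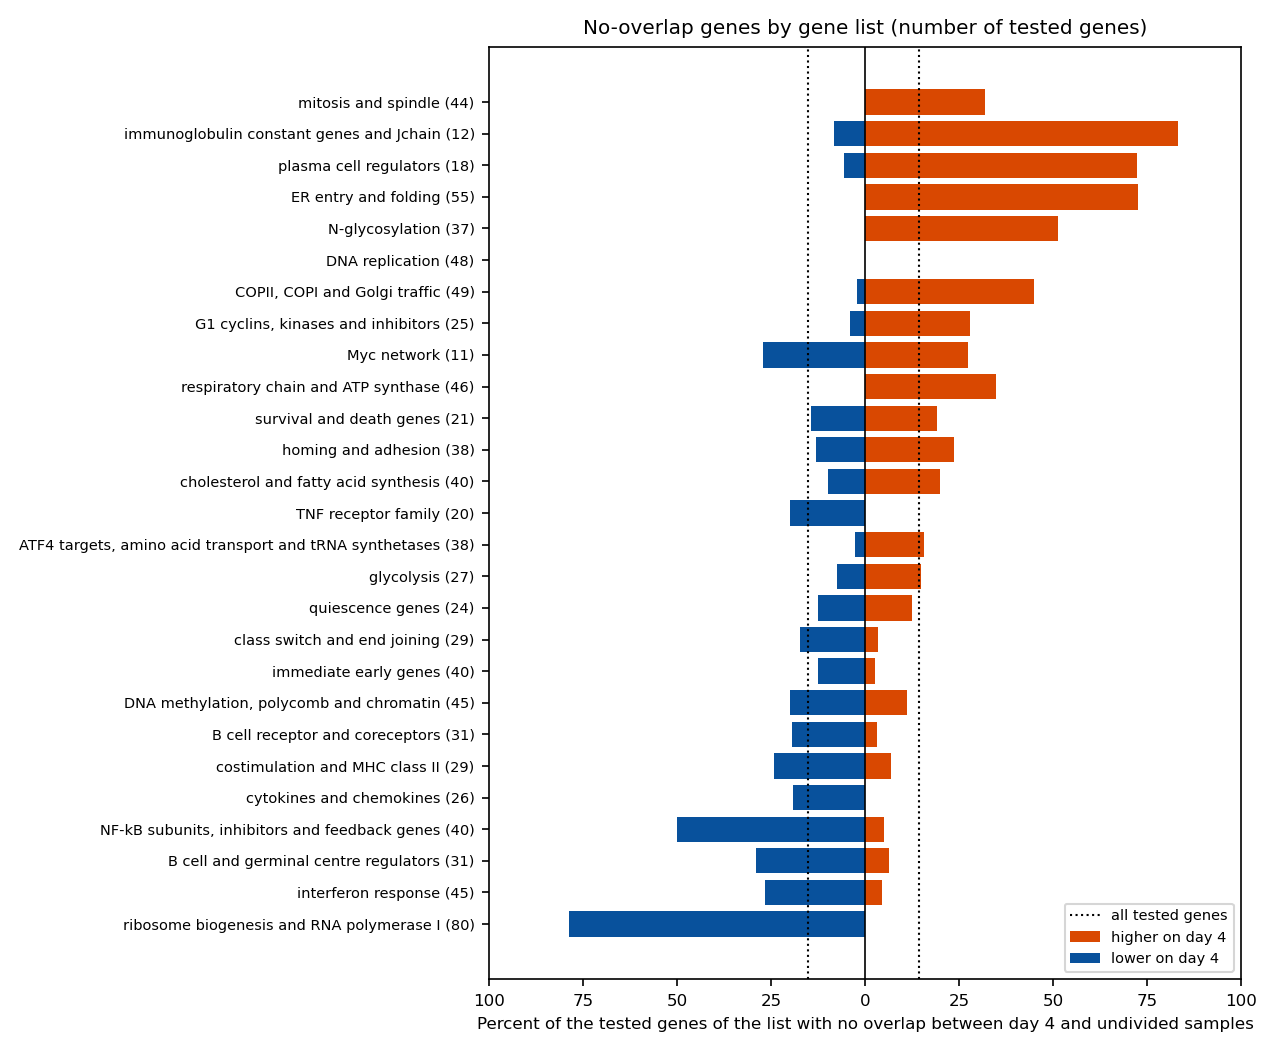
Share of tested genes of each list, in percent, that were higher or lower on day 4 without overlap of samples, with dotted lines at the background of all tested genes (14.3% higher and 15.1% lower). The bars furthest past the line are those of immunoglobulin, ER, plasma cell regulator, glycosylation and traffic genes on the higher side, and of ribosome biogenesis and NF-kB genes on the lower side.

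Metabolic lists moved less. Of 46 genes of the respiratory chain and ATP synthase 16 rose (34.8%, against 22.1% of all tested genes) and 0 fell (against 17.8%), with a median log2 fold change of 0.441. All 16 no-overlap genes were on the higher side, where the share of all tested genes was 14.3%. Ndufb8, a subunit of complex I, was at 84.5 and 91.2 RPKM at 3 h, 181 and 167 at 10 h and 185 and 209 at 33 h, and at 256 and 258 RPKM in expanded cells and 325 and 347 in plasmablasts, and Cox6c and Cox7a2 of complex IV rose by 0.99 and 0.96. Against 33 h alone 5 of the 46 were called higher, under the 14.1% of all tested genes. Sterol and fatty acid genes were near the shares of all tested genes, with 8 of 40 higher (20%, against 22.1%) and 8 lower (20%, against 17.8%). Fads2, a fatty acid desaturase, was at 0.148 and 0.501 RPKM at 3 h, 1.89 and 1.95 at 10 h and 16.5 and 13.7 at 33 h, and at 32.9 and 30.2 RPKM in expanded cells and 33.8 and 33.1 in plasmablasts, and its neighbour Fads1 rose by 2.35. Fasn fell by 0.99, and Abcg1 and Mylip, genes of the sterol-sensing LXR pathway, by 2.43 and 2.10.

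Of 38 ATF4 targets, amino acid transporters and tRNA synthetases 8 rose (21.1%, near the 22.1% of all tested genes) and 0 fell, while 10 were higher against 33 h alone. Asns, asparagine synthetase, was at 1.71 and 4.65 RPKM at 3 h, 18.7 and 22.3 at 10 h and 9.27 and 17.6 at 33 h, and at 53.0 and 58.7 RPKM in expanded cells and 70.6 and 85.7 in plasmablasts. Psph and Phgdh, of serine synthesis, rose by 2.03 and 1.38, and the transporter Slc43a1 by 2.11. In glycolysis 8 of 27 rose (29.6%, against 22.1% of all tested genes) and 3 fell (11.1%, against 17.8%). Set against 33 h alone, 2 were higher and 1 lower, both under the 14.1% and 12.2% of all tested genes. The list had Pkm (1.11) and Slc16a3 (2.79) on the higher side and Hif1a (-0.81) on the lower. Ldhb, the heart-type lactate dehydrogenase subunit, had at most 2 counts in any undivided sample and stood at 0.582 and 0.675 RPKM in expanded cells and 0.722 and 0.711 in plasmablasts.

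Chromatin regulators gave 13 lower calls among 45 genes (28.9%, against 17.8% of all tested genes) and 8 higher (17.8%, against 22.1%). The comparison with 33 h alone gave 11 lower and 1 higher, where the shares of all tested genes were 12.2% and 14.1%. Kdm6b, an H3K27 demethylase, was at 261 and 181 RPKM at 3 h, 26.9 and 32.6 at 10 h and 7.64 and 7.9 at 33 h, and at 3.34 and 4.51 RPKM in expanded cells and 2.79 and 2.9 in plasmablasts, a fall that lay largely before 33 h. Dnmt3a, a de novo DNA methyltransferase, fell from a range of 8.44 to 11.3 RPKM in undivided samples to 6.2 and 5.72 in expanded cells and 2.1 and 1.84 in plasmablasts, and Tet3 by 1.48. The polycomb gene Cbx8 rose by 1.46, and Rnf2 fell by 1.13. Among 24 quiescence genes 1 rose (4.17%, against 22.1% of all tested genes) and 5 fell (20.8%, against 17.8%). Foxp1 fell by 0.91 with no overlap.

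The naive samples placed the no-overlap genes in several courses. Of the 1824 higher genes, 1370 (75.1%) had both naive samples below every day 4 sample, and 347 (19%) had both at or above the lowest of them, so that the undivided activated stages were a trough. Of the 1930 lower genes, 1137 (58.9%) had naive samples above all day 4 samples, and 706 (36.6%) had them at or below the highest, so that undivided stages were a peak. The genes named next were chosen after their values were seen. Vpreb3 was at 191 and 159 RPKM in naive cells, 10.6 to 35.2 in undivided samples, 144 and 153 in expanded cells and 244 and 259 in plasmablasts. Lax1, a membrane adaptor that restrains antigen receptor signals, was at 61.1 and 63.2 RPKM in naive cells, 12.7 to 16.0 in undivided samples, 59.6 and 70.0 in expanded cells and 256 and 285 in plasmablasts. St6gal1, a sialyltransferase of the glycosylation list, followed that course, at 119 and 112 RPKM in naive cells, 20.9 to 45.2 in undivided samples, 97.9 and 105 in expanded cells and 476 and 473 in plasmablasts. Marcksl1, an actin-binding substrate of protein kinase C, peaked instead, with 83.0 and 84.9 RPKM in naive cells, 175 to 1833 in undivided samples, 88.3 and 85.7 in expanded cells and 18.9 and 17.4 in plasmablasts. Tfap4, a transcription factor downstream of Myc, was at 5.1 and 4.57 RPKM in naive cells, 10.7 to 19.2 in undivided samples, 5.15 and 4.94 in expanded cells and 3.45 and 2.87 in plasmablasts.

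The genes that were higher than in undivided cells and yet lower in plasmablasts than in expanded cells were few, 42 in all. Dkk3, a secreted protein of the Dickkopf family, was chosen for its large difference within day 4: it was at 0 to 0.051 RPKM in undivided samples, 13.6 and 12.7 in expanded cells and 0.164 and 0.378 in plasmablasts. Its undivided samples lay near the detection limit, so no fold change against them is given. Protein coding genes made up 93.3% of higher, 96.4% of lower and 92.7% of all tested genes, and long noncoding RNAs 3.18%, 1.71% and 3.62%.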

How the data were processed

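Gene expression was measured by RNA-seq of polyadenylated RNA in 12 samples, 2 for each of 6 stages. The authors aligned reads to mm10 (GRCm38) with Rsubread and deposited raw counts per Entrez gene made with featureCounts, without filtering and without pooling replicates. The submitters' processing notes also name CASAVA 1.8.2. Whether counting used the strand is not given in the sources used here, so a gene and an antisense partner cannot be told apart. The deposited exon length of each gene was used, in this work, to convert counts to RPKM.

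Gene names came from RefSeq (GRCm38.p6), which matched 25275 of 27179 genes. Unmatched genes (1.41% to 2.08% of counts), ribosomal RNA, mitochondrial (4.74% to 11.3%), X and Y genes and immunoglobulin variable segments were removed, as in the study's methods. Of the 23700 genes left, 12750 passed filterByExpr. Counts were scaled by TMM and fitted in edgeR 4.0.16 (R 4.3.3, limma 3.58.1) with robust quasi-likelihood dispersions, 1 coefficient per stage and all 12 samples. The contrast was tested by glmTreat against a fold change of 1.5, with Benjamini-Hochberg adjustment over all 12750 genes and a threshold of 0.05. SE is the log2 fold change divided by the square root of the F statistic. Gaps used log2 CPM with a prior count of 2. A level at or below 3 counts in every sample of a stage was treated as the floor, and no fold change is printed for a comparison that uses such a stage.

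Named genes were Jchain, Ighg3 and Bcl6, the 12 genes per direction with the largest gap among those that passed both rules and averaged 3 or more in log2 CPM, and up to 4 members per direction of each gene list that passed both, with a few list members that define it. Other list members, among them Bhlhe41, Irf4, Mef2c, Pou2f1, Fos, Mcm2, H2-Aa and H2-Eb1, were named after their values were seen. Some genes are not reported here. The comparison, the gene lists and the naming rule were chosen with earlier results of these data known. A stage is not a replicate of another: with 2 against 3 stages, a permutation of stages cannot reach 0.05. Same-numbered replicates were checked for shared deviations in 10 pairs of stages (r from -0.14 to 0.084). A correlation of this kind cannot show whether same-numbered samples share a culture. The scripts were tested on simulated counts. Alternatives covered scaling by library size or by DESeq2 1.42.0 size factors, DESeq2's test, count filters, the F-test without a fold change, a layout of 2 groups, each pair of stages, the replicate block, leaving out each sample and, added after the data were seen, 33 h as the only undivided stage.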

Additional observations from a re-analysis of the deposited data

Results flagged for a closer look

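The differences between both day 4 stages and the undivided cells had opposite signs for a small number of genes, each past the test in both stages. In 23 genes (0.18% of those tested) plasmablasts were higher and expanded cells lower than undivided cells, and in 72 genes (0.565%) the reverse held. The genes below were chosen after their values were seen, and their p-values compare plasmablasts with expanded cells.

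Myo1f, a class I myosin, was at 11.1 and 11.9 RPKM in expanded cells and 0.0331 and 0.0460 in plasmablasts, a log2 difference of -8.13 (edgeR adjusted p = 1.11e-09). Itgam, the integrin CD11b, was at 5.43 and 4.92 RPKM in expanded cells and at most 3 counts in plasmablasts, so no fold change is given. It is itself a member of the myeloid marker list, where it supplied 24.3 and 21.8 CPM of the sum in expanded cells. The part of myeloid RNA in its level was not tested.

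On the other side, Irf7, the regulator of type I interferon genes, was at 53.9 and 57.8 RPKM in plasmablasts and 4.98 and 5.96 in expanded cells, a log2 difference of 3.36 (edgeR adjusted p = 0.000402). Its 10 h replicates were at 21.8 and 6.78 RPKM. Spint2, an inhibitor of serine proteases, was at 91.4 and 86.2 RPKM in plasmablasts and 8.33 and 9.46 in expanded cells, a log2 difference of 3.32 (edgeR adjusted p = 1.11e-09). Rabac1, an acceptor for prenylated Rab proteins, was at 438 and 459 RPKM in plasmablasts and 62.7 and 69.3 in expanded cells, a log2 difference of 2.77 (edgeR adjusted p = 4.39e-09).

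Immunoglobulin variable segments, which were left out of every test, took 5.12% and 5.19% of all counts in plasmablasts and 1.13% and 1.28% in expanded cells. Undivided samples held 0.242% to 0.479%, and naive cells 0.439% and 0.435%, so day 4 exceeded every other stage.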

How the results depend on the processing

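The calls of 2820 higher and 2265 lower genes became 4793 and 4828 in the F-test with no fold change threshold, 1010 and 535 when the 10 activated samples were fitted as 2 groups, and 472 and 156 when all 6 stage comparisons had to pass; by their construction the first asks for less, and the others either count differences among stages as error or ask for more. With 33 h as the only undivided stage, 1798 genes were higher, 3188 had no overlap on the higher and 3814 on the lower side, and 1986 no-overlap genes also differed between plasmablasts and expanded cells, against 1128; fewer samples make no overlap easier. Leaving out 1 sample at a time gave 2667 to 2979 higher and 1947 to 2283 lower calls, 1859 to 2085 and 1810 to 2211 no-overlap genes, and 939 to 1280 of the last kind. With the replicate block 2812 genes were higher and 2250 lower, and whether same-numbered samples share a culture is not given in the sources used here. The 143 named genes counted here were chosen as past the test without overlap. A reversed sign could therefore hardly occur, and that 0 reversed is no check on them. Of these genes 51 lost their call in the layout of 2 groups, 32 against 33 h alone, and Slfn1 without the second 3 h sample. Other scalings and tests kept counts within 1.5 times. In the 3 h samples the shallowest library held 23026619 counts, and genes at or under 3 counts there have levels but no fold change.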
